A study of Mus musculus with 235 samples.

Results

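The response of messenger RNA levels to dexamethasone was compared between the brain punches named CER and PVN in the labels, gene by gene. All libraries of these punches were taken by the region name in the count table's columns, which gave 59 of the series' 235 libraries: 15 vehicle and 15 dexamethasone libraries of CER, and 14 vehicle and 15 dexamethasone libraries of PVN. The animals were adult male C57Bl/6 mice of 3 months, housed in groups. Each received either dexamethasone at 10 mg per kg or saline (vehicle) into the peritoneum, and was perfused 4 h later. Of the 30 mice, 29 gave both punches (14 vehicle, 15 dexamethasone), so the punches were compared within an animal and the treatments between animals. The vehicle animal with replicate number 2 gave CER alone. Libraries were made from the 3' ends of transcripts and carried molecular identifiers.

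Dexamethasone is a synthetic agonist of the glucocorticoid receptor, a nuclear receptor present in most neurons, glia and vessel cells. Bound to the hormone, the receptor enters the nucleus and raises or lowers transcription at sites that differ between cell types, so a shared core of target genes is usually accompanied by targets seen in some tissues and not in others. The paraventricular nucleus of the hypothalamus holds the neurons that start the hormonal stress axis, and glucocorticoids act on it as a brake. The thyroid hormone activating enzyme type 2 deiodinase, encoded by Dio2, sits in astrocytes and in tanycytes, the glia that line the ventricle floor beside the hypothalamus.

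Library totals of the 59 libraries ran from 268538 to 1277998 counts, and the group medians from 664368 (CER vehicle) to 786619.5 (PVN vehicle). Levels are given as CPM, counts scaled to 1000000 by each library's TMM-adjusted total. At these depths a count of 0 allowed a level of up to 2.23 to 12.3 CPM (3 counts), counting error only. Mean RNA integrity was 5.91 to 6.25 in the 4 groups, and 1 CER vehicle library had a value of 2.5.

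The labels do not expand the region names, and markers were read before any response. In CER vehicle libraries several defining markers of cerebellar cortex were at or near 0: Gabra6, a receptor subunit of cerebellar granule neurons, had no count in 15 of 15, and Skor2 and Pcp2, genes of Purkinje neurons, had none in 14 and in 13. Of the whole lists, 2 of 12 granule neuron genes and 3 of 10 Purkinje genes had no count in most CER vehicle libraries, and the others had counts. In PVN vehicle 4 of 12 granule genes had no count in most libraries, Cbln3 and Barhl1 besides Gabra6 and Fat2, and those 2 had CER vehicle medians of 1.92 and 1.81 CPM. The summed level of the granule list had a median of 363 CPM in CER vehicle and 763 CPM in PVN vehicle, and that of the Purkinje list 566 and 895 CPM, so neither list was higher in CER. Transcripts of hindbrain identity were present, with a median of 21.2 CPM for Slc6a5, the glycine transporter of inhibitory hindbrain neurons. The median was 12.4 CPM for Hoxb3, which had no count in any of the 14 PVN vehicle libraries. Of the whole list of 11 hindbrain and cerebellar nuclei genes, only Hoxb5 had no count in most CER vehicle libraries. The list's summed level had a median of 477 CPM in CER vehicle and 204 CPM in PVN vehicle. Only 3 of its genes were tested between the punches under vehicle, and 1 was higher in CER and 1 in PVN. The granule and Purkinje values go against a reading of CER as mainly cerebellar cortex, and the punches are called CER throughout. They were also rich in myelin transcripts. The oligodendrocyte list (10 genes, mean log2 of CPM + 1) stood at 9.17 ± 0.33 (SD, n = 15) in CER vehicle and at 7.94 ± 0.22 (SD, n = 14) in PVN vehicle.

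The PVN vehicle libraries held the hypothalamic peptides, with medians of 122 CPM for Oxt (oxytocin), 36.0 CPM for Avp (vasopressin) and 13.9 CPM for Sim1, a regulator of paraventricular neurons. They also held Pmch at 797 CPM and Hcrt at 346 CPM, peptides of the lateral hypothalamus, and thalamic Tcf7l2 at 556 CPM against 56.8 CPM in CER vehicle. A PVN punch was thus a mix of hypothalamus and its neighbours. In bulk tissue, fewer cells of a type and less RNA per cell cannot be told apart. Libraries that stood apart were CER vehicle 9 and PVN dexamethasone 1, whose list of cortical and hippocampal projection neurons reached 7.46 and 7.13 against group means of 5.48 ± 0.82 (SD, n = 15) and 5.34 ± 0.63 (SD, n = 15), and CER vehicle 1, whose oligodendrocyte list was lowest at 8.15.

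**Figure D1:**
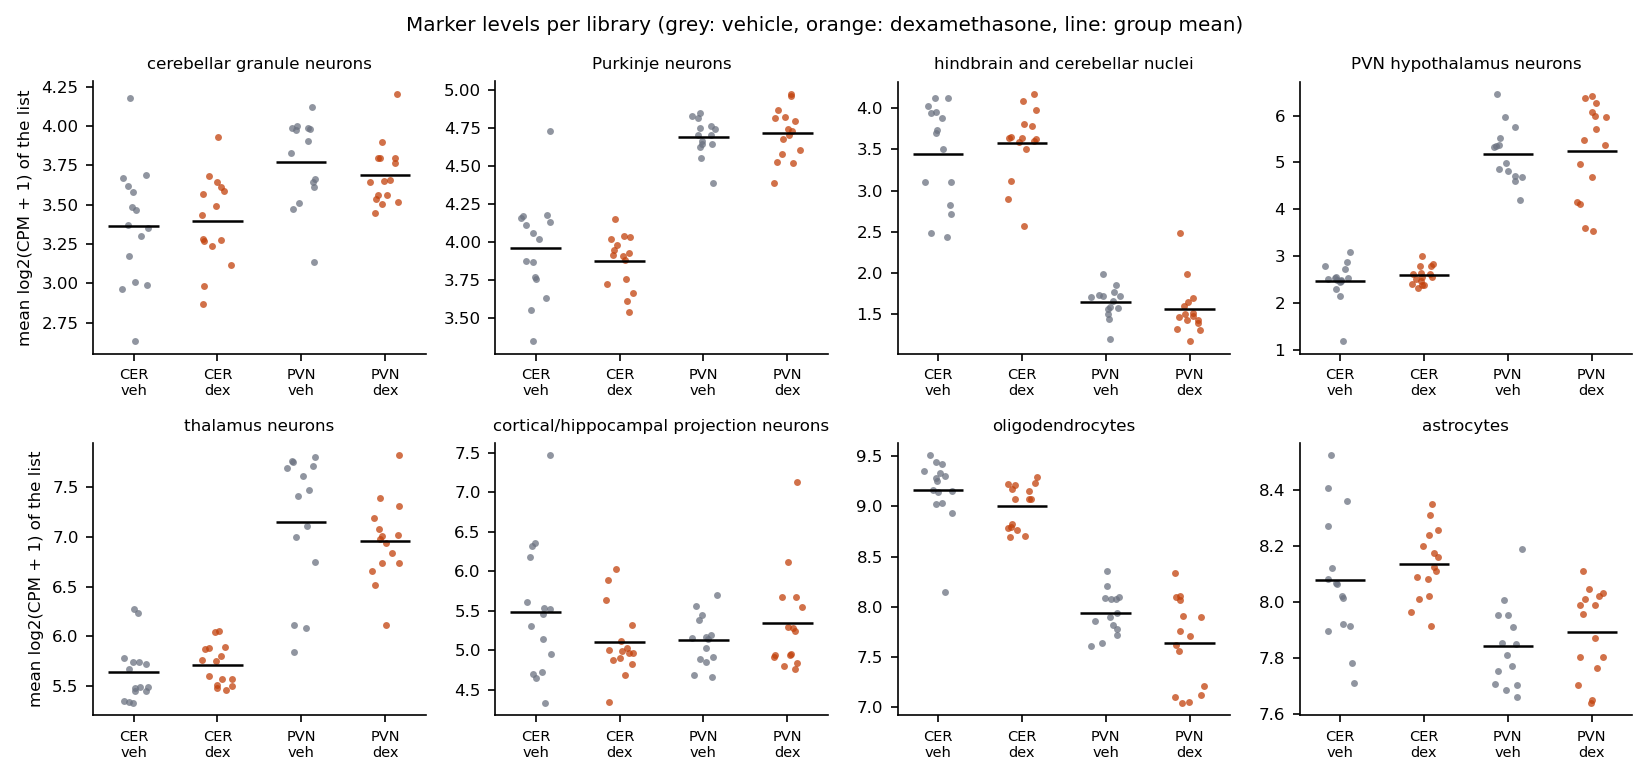
Mean log2(CPM + 1) of 8 marker lists (vertical axes) in each CER and PVN library, vehicle in grey and dexamethasone in orange, with a line at the group mean. The hypothalamic and thalamic lists sit higher in PVN and the oligodendrocyte and hindbrain lists higher in CER. For projection neurons CER vehicle 9 lies at 7.46, and a treated PVN library also stands apart.

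Of the genes tested in both punches, dexamethasone changed 317 in both, while 205 passed in CER alone and 185 in PVN alone. The difference between the punches passed for 3 of those 205 and for 2 of those 185, so passing in 1 punch alone does not show that the responses differed. In CER 558 of 9035 genes tested (6.18%) passed an adjusted p of 0.05 in edgeR's quasi-likelihood test, 352 higher (3.9%) and 206 lower (2.28%). In PVN 522 of 9273 (5.63%) passed, 331 higher (3.57%) and 191 lower (2.06%). Of the 8812 genes tested in both, the 317 past in both were 60.7% of those past in CER and 63.1% of those past in PVN. Among them 206 rose and 111 fell in both, and 0 moved in opposite directions with edgeR. At an unadjusted p under 0.05 in both fits 12 genes had opposite directions, and at an adjusted 0.05 there was 1, Bcl11a, both with DESeq2 and with the replicate number as a block.

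The difference itself was tested as the CER change minus the PVN change, with the animal as a block, in 1 edgeR fit over all 59 libraries. It passed an adjusted p of 0.05 for 13 of 9959 genes (0.131%). The change was more positive in CER for 8 of them (0.0803%) and more positive in PVN for 5 (0.0502%). With the replicate number, which marks a shared plate and mostly a shared punching date, added as a block within each punch, 21 genes passed, all 13 among them. The count fell to 6 without the animal block, to 8 with limma-voom, to 7 with projection neuron and thalamus levels as covariates and to 2 when every library was thinned to the smallest total, and it rose to 58 without a filter on low counts. At an unadjusted p under 0.05 there were 590 genes (5.92%), 290 with the more positive change in CER (2.91%) and 300 in PVN (3.01%). Of the 317 genes past in both punches, 310 did not pass the test of the difference, and for 290 of these the 95% interval of the difference lay within 2-fold either way.

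**Figure D2:**
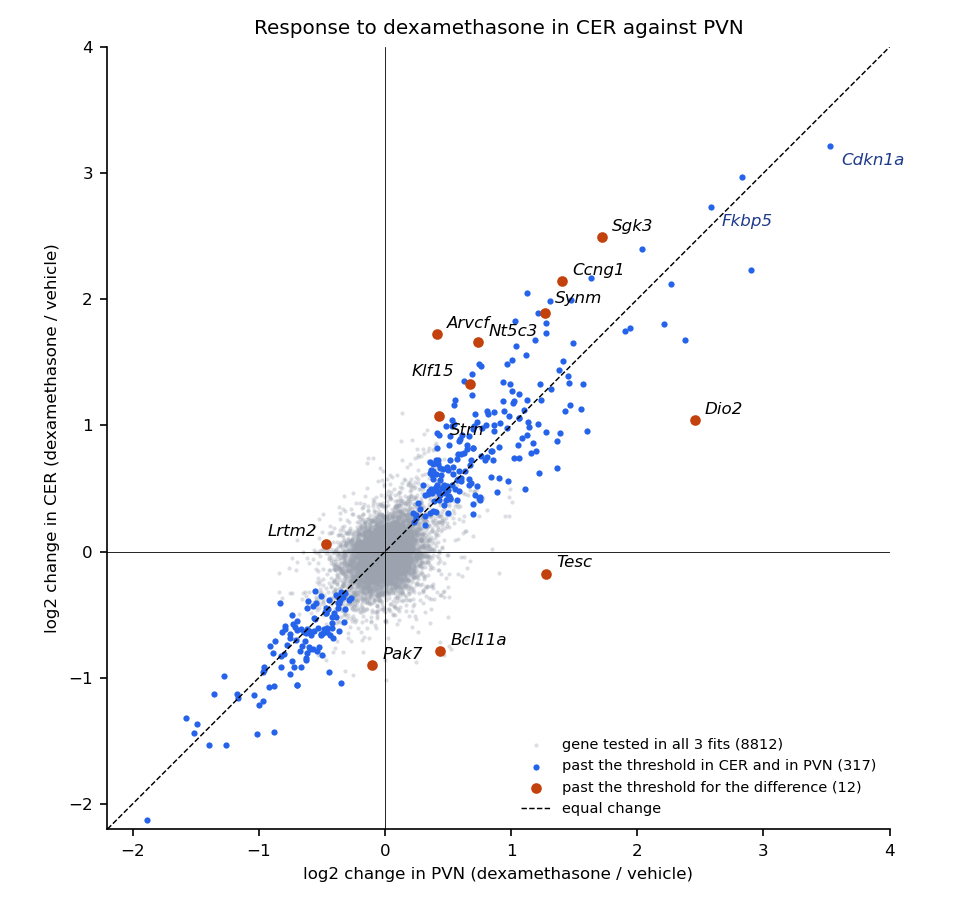
Log2 change in PVN (horizontal) against log2 change in CER (vertical) for the 8812 genes tested in all 3 fits, with the 317 past the threshold in both punches in blue, the 12 whose difference passed in orange, and a dashed line of equal change. Dio2 lies to the right of the line, at 2.45 in PVN and 1.04 in CER, and 2 genes fall outside the plotted range; Kcnk13 was not tested in the fits of single punches and is not drawn.

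Dio2 (ENSMUSG00000007682, chr12:90724554-90738438, minus strand, mm10), which turns the prohormone thyroxine into active thyroid hormone, had the smallest p of all genes for the difference. Its PVN level ran from 18.5 CPM over a median of 29.3 to 38.3 CPM under vehicle. Under dexamethasone it ran from 102 over 135 to 225 CPM. Every treated PVN library lay above every vehicle library. In CER it ran from 58.4 over 97.5 to 176 CPM under vehicle and from 132 over 193 to 354 CPM under dexamethasone, so the arms overlapped and 9 of 15 treated libraries exceeded the vehicle maximum. Dio2 rose 5.48-fold in PVN (log2 2.45 ± 0.13, SE, adjusted p 1.1e-19) and 2.06-fold in CER (log2 1.04 ± 0.14, adjusted p 2.18e-07). The difference of the changes was -1.40 ± 0.18 (95% interval -1.74 to -1.06, adjusted p 3.83e-06).

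The vehicle level of Dio2 was the other way round, 3.35-fold higher in CER than in PVN (log2 1.74 ± 0.12, adjusted p 9.32e-12, paired over 14 animals). Within an animal, the CER level exceeded the PVN level by 1.22 to 2.91 (log2 of CPM + 1, median 1.67) in the 14 vehicle mice. In the 15 treated mice the same difference ran from -0.25 to 1.48 with a median of 0.21, and 14 of them lay below the lowest vehicle mouse. The vehicle level and the change share the vehicle libraries, so they are set side by side and no relation between them is read. The astrocyte list's level was 8.08 ± 0.23 and 8.13 ± 0.13 in CER vehicle and dexamethasone (SD, n = 15 each), and 7.84 ± 0.15 (SD, n = 14) and 7.89 ± 0.15 (SD, n = 15) in PVN. Its summed level had a vehicle median of 6901 CPM in CER and 5119 CPM in PVN. Of its 10 genes 4 were higher in CER vehicle and 1 in PVN vehicle, where 13.6% and 11.6% of all genes were. The ependymal list, the nearest measured to tanycytes, stood at 2.19 ± 1.23 in PVN vehicle and 2.31 ± 1.16 in PVN dexamethasone, and at 1.52 ± 0.50 and 1.19 ± 0.46 in CER. The part of these cells in the result was not tested.

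The 250 bases before the start of Dio2 are shown because its promoter is a known target of cAMP signalling and its response differed most clearly. They lie at chr12:90739039-90739288 on the minus strand of GRCm38.p6 (RefSeq), 600 bases from the gene start of the count table, and the capitals mark a cAMP response element.

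Dio2 promoter: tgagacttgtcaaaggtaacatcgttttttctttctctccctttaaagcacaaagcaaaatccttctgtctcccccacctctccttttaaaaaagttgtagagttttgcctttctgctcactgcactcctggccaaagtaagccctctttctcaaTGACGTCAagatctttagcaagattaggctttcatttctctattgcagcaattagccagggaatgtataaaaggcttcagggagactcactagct

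The element TGACGTCA spans bases 95 to 88 before the start, and 1.546% of 32851 promoter windows of the same length held it on either strand. A RefSeq window was matched for 12 of the 13 genes, and Dio2 alone of these held the element. The core of the glucocorticoid response element, ACANNNTGT, was in 0 of the 12 windows and in 5.835% of all windows, searched on both strands. A window without a match says only that these letters are not in it.

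Of the genes with a larger rise in CER, 6 rose in both punches and 1 in CER alone. Nt5c3 (ENSMUSG00000029780, chr6:56882400-56923932, minus strand), a pyrimidine nucleotidase, ran from 71.8 over a median of 98.2 to 131 CPM in CER vehicle and from 215 over 332 to 421 CPM in CER dexamethasone, with no overlap. Its PVN libraries ran from 62.4 over 90.9 to 113 CPM and from 100.3 over 138 to 209 CPM, and 10 of 15 treated libraries exceeded the vehicle maximum. It rose 3.16-fold in CER and 1.67-fold in PVN, a difference of 0.94 ± 0.12 (interval 0.69 to 1.18, adjusted p 8.58e-06). Its vehicle levels did not pass the test between punches (log2 0.17, adjusted p 0.202). Nt5c3 and Dio2 kept their call in 16 of 16 alternative analyses.

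Ccng1 (ENSMUSG00000020326, chr11:40748552-40755311, minus strand), the p53 target cyclin G1, started from near-equal levels. Its CER vehicle libraries ran from 29.0 over 42.3 to 64.6 CPM and its PVN vehicle libraries from 29.9 over 42.5 to 66.8 CPM (log2 difference -0.02, adjusted p 0.963). Under dexamethasone it ran from 122 over 189 to 252 CPM in CER and from 73.0 over 99.0 to 179 CPM in PVN, and neither punch showed an overlap of the arms. The rise was 4.43-fold in CER and 2.65-fold in PVN, with a difference of 0.81 ± 0.14 (interval 0.54 to 1.09, adjusted p 0.00115). The call ended when libraries were thinned (0.68, adjusted p 0.344, range over its alternatives 0.000213 to 0.344).

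Sgk3 (ENSMUSG00000025915, chr1:9798107-9900845, plus strand), a kinase of the serum and glucocorticoid regulated family, had the largest rise in CER among the 13 genes. It ran from 10.3 over 28.4 to 51.0 CPM in CER vehicle and from 99.3 over 158 to 207 CPM in CER dexamethasone. The PVN values were lower, from 7.47 over 19.8 to 30.3 CPM and from 26.7 over 48.9 to 107 CPM. The arms did not overlap in CER, and in PVN 13 of 15 treated libraries exceeded the vehicle maximum. It rose 5.63-fold in CER and 3.29-fold in PVN, a difference of 0.86 ± 0.19 (interval 0.49 to 1.23, adjusted p 0.0345). That call ended without the animal block (adjusted p 0.321), with limma-voom (adjusted p 0.203) and when libraries were thinned (adjusted p 0.638, range over its alternatives 0.00294 to 0.638).

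Klf15 (ENSMUSG00000030087, chr6:90462576-90475238, plus strand), a glucocorticoid-induced transcription factor of amino acid and fuel metabolism, ran from 23.4 over 32.5 to 61.6 CPM in CER vehicle and from 64.5 over 94.2 to 121 CPM in CER dexamethasone. In PVN it ran from 23.9 over 41.4 to 71.0 CPM and from 38.5 over 68.7 to 93.8 CPM. The arms were apart in CER and overlapped in PVN, where 5 of 15 treated libraries exceeded the vehicle maximum. It rose by 1.33 ± 0.12 in CER and by 0.68 ± 0.13 in PVN on the log2 scale, a difference of 0.71 ± 0.15 (interval 0.41 to 1.01, adjusted p 0.0337). It lost its call in 6 of 16 alternatives, among them the fit without the animal block and limma-voom (adjusted p 0.249 in both, range over its alternatives 0.0115 to 0.249).

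Synm (ENSMUSG00000030554, chr7:67730160-67759742, minus strand), the intermediate filament protein synemin, ran from 66.8 over 93.4 to 127 CPM and from 279 over 358 to 467 CPM in CER, and from 33.4 over 61.0 to 85.6 CPM and from 95.2 over 159 to 206 CPM in PVN. The arms did not overlap in either punch. Its exons share 426 bases with Gm45102 and 84 with Ttc23 on the other strand. Whether counting used the strand is not stated. It rose 3.71-fold in CER and 2.40-fold in PVN, a difference of 0.60 ± 0.12 (interval 0.36 to 0.83, adjusted p 0.0118). That call ended without the animal block (adjusted p 0.0514) and when libraries were thinned (adjusted p 0.124, range over its alternatives 0.00533 to 0.124).

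Strn (ENSMUSG00000024077, chr17:78649913-78737196, minus strand), striatin, a scaffold of protein phosphatase complexes, ran from 31.6 over 56.2 to 89.0 CPM and from 86.0 over 125 to 146 CPM in CER. The PVN levels went from 32.3 over 43.4 to 58.3 CPM and from 38.8 over 57.0 to 103 CPM. In CER 14 of 15 treated libraries exceeded the vehicle maximum, and in PVN 6 did. It rose 2.11-fold in CER and 1.35-fold in PVN (adjusted p 0.0252, and 0.0581 with the replicate number as a block), a difference of 0.69 ± 0.15 (interval 0.40 to 0.98, adjusted p 0.0337). Its call ended without the animal block, with limma-voom and when libraries were thinned (adjusted p range over its alternatives 0.00767 to 0.828). Without the 3 animals that stood apart, an exclusion chosen after seeing the data, the differences of Strn, Klf15 and Sgk3 were 0.64, 0.69 and 0.80 and did not pass.

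Arvcf (ENSMUSG00000000325, chr16:18348182-18407076, plus strand), a catenin of the p120 family that binds cadherins, was lower in CER than in PVN under vehicle (log2 -1.07 ± 0.18, adjusted p 5.25e-05). It ran from 4.98 over 9.04 to 18.6 CPM in CER vehicle and from 11.3 over 36.8 to 51.5 CPM in CER dexamethasone, and 14 of 15 treated libraries exceeded the vehicle maximum. Its PVN levels went from 8.14 over 20.4 to 28.5 CPM and from 13.8 over 23.9 to 41.9 CPM, with broad overlap. It rose 3.30-fold in CER (adjusted p 2.23e-09), while the PVN change was 0.41 ± 0.15 (log2, adjusted p 0.126), and the difference was 1.43 ± 0.24 (interval 0.96 to 1.89, adjusted p 0.00115). The call ended when libraries were thinned (1.55, adjusted p 0.136, range over its alternatives 9.71e-06 to 0.136).

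**Figure D3:**
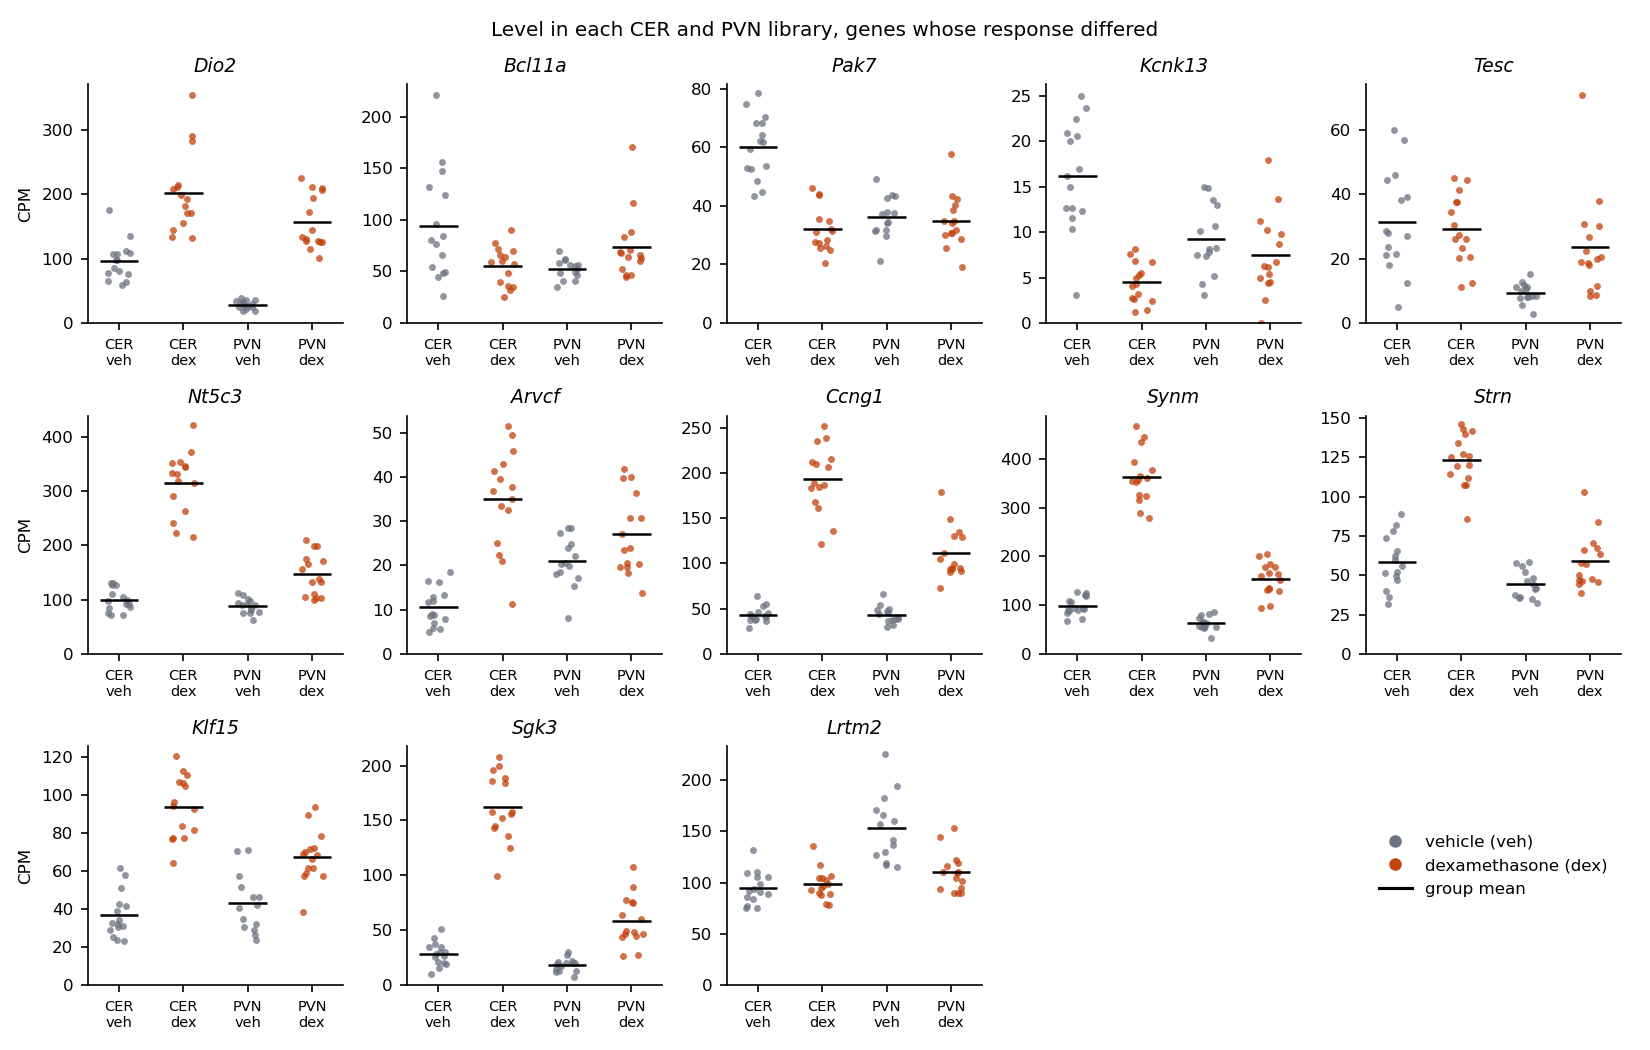
CPM (vertical axes, from 0) of the 13 genes in each of the 59 libraries, by punch and arm, vehicle in grey and dexamethasone in orange, with a line at the group mean. The first 5 panels are the genes with the more positive change in PVN; the Dio2 points of PVN separate fully, from 18.5 to 38.3 CPM against 102 to 225 CPM.

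The other genes fell in CER or passed in PVN alone. Pak7 (ENSMUSG00000039913, chr2:136081104-136387967, minus strand), a neuronal p21-activated kinase, ran from 43.4 over 61.7 to 78.5 CPM in CER vehicle and from 20.5 over 31.0 to 46.0 CPM in CER dexamethasone, with 12 of 15 treated libraries under the vehicle minimum. PVN libraries ran from 21.2 over 35.9 to 49.3 CPM and from 19.2 over 34.2 to 57.8 CPM, and the arms overlapped throughout. Its CER level fell to 0.535-fold (adjusted p 1.05e-07), the PVN change was -0.10 ± 0.12 (log2, adjusted p 0.814), and the difference was -0.84 ± 0.16 (interval -1.15 to -0.52, adjusted p 0.00839).

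Bcl11a (ENSMUSG00000000861, chr11:24078056-24174123, plus strand), a zinc finger transcription factor of many neurons, ran from 26.4 over 80.1 to 222 CPM and from 25.6 over 59.2 to 90.2 CPM in CER. In PVN it ran from 35.3 over 53.8 to 69.7 CPM and from 44.9 over 66.4 to 171 CPM. The arms overlapped in both punches, and the extremes came from few libraries: CER vehicle 9, 8 and 1 had 222, 156 and 148 CPM, and PVN dexamethasone 1 had 171 CPM. Its CER level fell to 0.579-fold (adjusted p 0.0146), the PVN change was 0.44 ± 0.14 (log2, adjusted p 0.0508, and 0.0109 with the replicate number as a block), and the difference was -1.18 ± 0.23 (interval -1.63 to -0.74, adjusted p 0.00839). Without the 3 animals named above as standing apart it was -0.93 (adjusted p 0.062, in a range over the alternatives of 2.7e-09 to 0.114). Its exons share 316 bases with the antisense 4930538E20Rik.

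Tesc (ENSMUSG00000029359, chr5:118027743-118061878, plus strand), the calcium-binding protein tescalcin, ran from 2.89 over 9.17 to 15.2 CPM in PVN vehicle and from 8.38 over 19.8 to 70.7 CPM in PVN dexamethasone. In CER it ran from 5.06 over 27.9 to 60.0 CPM and from 11.0 over 27.2 to 45.1 CPM. In PVN 11 of 15 treated libraries exceeded the vehicle maximum, and in CER the arms overlapped throughout. It rose 2.42-fold in PVN (adjusted p 0.000179), the CER change was -0.18 ± 0.22 (log2, adjusted p 0.882), and the difference was -1.42 ± 0.31 (interval -2.03 to -0.81, adjusted p 0.0345). It did not pass without the animal block (adjusted p 0.0656), with DESeq2 (adjusted p 0.0995) or with limma-voom (adjusted p 0.332).

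Lrtm2 (ENSMUSG00000055003, chr6:119315133-119330766, minus strand), a membrane protein with leucine-rich repeats, was the only gene that fell in PVN among the 12 of the 13 tested there. It ran from 115 over 149 to 225 CPM in PVN vehicle and from 89.5 over 109 to 153 CPM in PVN dexamethasone, with 10 of 15 treated libraries under the vehicle minimum. In CER it ran from 75.1 over 91.7 to 132 CPM and from 78.4 over 97.0 to 135 CPM, and the arms overlapped throughout. Its PVN level fell to 0.725-fold (adjusted p 0.000468), the CER change was 0.06 ± 0.09 (log2, adjusted p 0.916), and the difference was 0.51 ± 0.12 (interval 0.29 to 0.74, adjusted p 0.045). It lost its call in 7 of 16 alternatives, DESeq2, limma-voom and the fit without the animal block among them (adjusted p range 0.0218 to 0.817). Without the same 3 animals it was 0.52 and did not pass.

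Values of the list of cortical and hippocampal projection neurons are given beside these genes. The list's level was 5.48 ± 0.82 (SD, n = 15) in CER vehicle and 5.11 ± 0.45 (SD, n = 15) in CER dexamethasone, and 5.13 ± 0.31 (SD, n = 14) and 5.34 ± 0.63 (SD, n = 15) in PVN, with summed levels of 480.3 to 4171, 423 to 1363, 890.5 to 1731 and 1000.4 to 3278 CPM. All 7 of its 8 genes that were tested had a negative difference (median -0.74), against a median of -0.0032 over all genes. With edgeR 0 of the 7 passed, 4 had an unadjusted p under 0.05 and a more positive change in PVN, where 3.01% of all genes did (Prox1, Neurod6, Nrgn and Slc17a7), and DESeq2 and limma-voom called 0, with 1 and 2 at an unadjusted p under 0.05. With the projection neuron and thalamus levels as covariates, an alternative chosen after seeing the data, the difference was -0.82 for Bcl11a (adjusted p 0.107), -0.67 for Pak7 (adjusted p 0.182, range over alternatives 0.00767 to 0.261) and -1.14 for Tesc (adjusted p 0.299, range 1.62e-05 to 0.332). The same covariates ended the calls of Lrtm2 (0.55, adjusted p 0.0688), Synm (0.55, adjusted p 0.0765), Klf15 (0.75, adjusted p 0.0665) and Sgk3 (0.90, adjusted p 0.0688). In the main fit Synm was at 0.60, while Lrtm2, Klf15 and Sgk3 were smaller there, at 0.51, 0.71 and 0.86. The other 6 genes kept their calls: Dio2, Nt5c3, Arvcf, Ccng1, Kcnk13 and Strn, the last at 0.80 against 0.69 in the main fit. The oligodendrocyte list stood at 9.17 ± 0.33 and 9.01 ± 0.22 (SD, n = 15 each) in CER and at 7.94 ± 0.22 (SD, n = 14) and 7.64 ± 0.44 (SD, n = 15) in PVN, with a positive difference for all 10 genes, of which 0 passed with any of the 3 tools and 0 had an unadjusted p under 0.05. For thalamus neurons 6 of 7 differences were positive and 0 passed, 2 had an unadjusted p under 0.05 with edgeR, and the summed PVN median was 2109 CPM under vehicle and 1494 CPM under dexamethasone. With oligodendrocyte and choroid plexus levels as covariates Lrtm2 did not pass (0.48, adjusted p 0.112). The part of these lists in the results was not tested further.

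Kcnk13 (ENSMUSG00000045404, chr12:99964499-100062682, plus strand), a background potassium channel known from microglia, lay near the floor. It ran from 3.04 over 16.2 to 25.0 CPM in CER vehicle and from 1.18 over 4.29 to 8.19 CPM in CER dexamethasone, on 158 and 48 counts in all. In PVN it ran from 3.03 over 8.21 to 14.9 CPM and from 0 over 6.26 to 17.9 CPM, on 106 and 87 counts. The treated CER libraries were mostly low and 5 lay under the vehicle minimum, while the PVN arms overlapped throughout. In fits without a filter on low counts the changes were -1.79 ± 0.26 in CER and -0.24 ± 0.26 in PVN (log2, adjusted p 9.16e-07 and 0.748). The difference was -1.63 ± 0.35 (interval -2.32 to -0.94, adjusted p 0.0337), and on 1 punching date it was 0.038. It did not pass without the animal block (adjusted p 0.0514) or with limma-voom (adjusted p 0.203, range over its alternatives 0.00667 to 0.203). The microglial list (12 genes) stood at 4.53 ± 0.30 and 4.10 ± 0.25 (SD, n = 15 each) in CER vehicle and dexamethasone. In PVN it stood at 4.56 ± 0.17 (SD, n = 14) and 4.21 ± 0.23 (SD, n = 15). Of 8 microglial markers tested 2 fell in CER and 2 in PVN, where 2.28% and 2.06% of all genes fell, and the median changes of the markers tested were -0.18 and 0.0035. Those 2 were Cx3cr1, the fractalkine receptor, at -2.34 in CER and -2.02 in PVN (log2) and P2ry12, the purinergic receptor of resting microglia, at -0.97 and -0.75. Of the 8 markers, 0 passed the test of the difference with edgeR, DESeq2 or limma-voom, and 0 had an unadjusted p under 0.05 with any of the 3.

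The 13 genes were selected by the test of the CER minus PVN difference in these same mice. Counts of mice therefore restate that selection in part, and no share over all genes was taken for them. Within animals, the difference between the punches lay on the tested side of the vehicle median in 13 to 15 of the 15 treated mice for each of the 13 genes. For Nt5c3 it ran from -0.34 to 0.59 in vehicle mice and from 0.47 to 1.74 in treated mice (log2 of CPM + 1), and 14 of 15 treated mice exceeded the vehicle maximum. For Pak7 the medians were 0.70 and -0.07, with 12 of 15 treated mice under the vehicle minimum. For Arvcf and Lrtm2 10 of 15 treated mice exceeded the vehicle maximum, for Synm 12 and for Ccng1 11. The arms overlapped by at least 1 mouse for all 13, and over all 9959 genes tested 0 (0.0%) had arms that did not overlap.

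**Figure D4:**
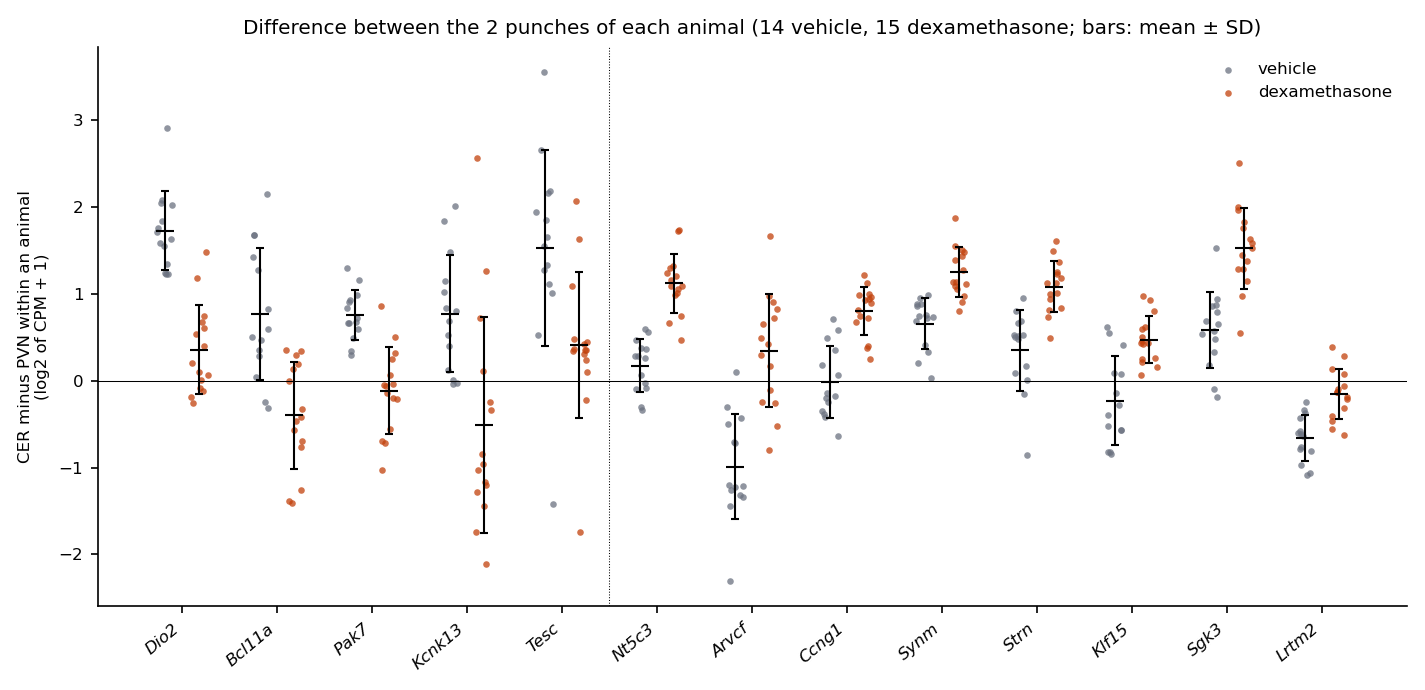
CER level minus PVN level within each animal (vertical axis, log2 of CPM + 1) for the 13 genes, vehicle mice in grey (n = 14) and treated mice in orange (n = 15), with mean ± SD in black and a dotted line after the 5 genes with the more positive change in PVN. For Dio2 the median, which is not drawn, was 0.21 in treated mice and 1.67 in vehicle mice.

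Each difference was recomputed within the punching dates and library plates of the labels. The sign was kept on 4 of 4 dates and on 4 of 4 plates for 12 of the 13 genes, and for Kcnk13 on 3 of 4 dates. These are parts of the same libraries that selected the genes, so a kept sign is largely fixed in advance. No share over all genes was taken for it. Punching date 2 had too few animals for a value. For Dio2 the differences ran from -1.50 to -1.02 between dates, for Nt5c3 from 0.86 to 1.06, for Klf15 from 0.64 to 0.92, for Bcl11a from -1.81 to -0.30 and for Tesc from -1.47 to -0.26. Between plates Arvcf ran from 0.38 to 1.91, Strn from 0.14 to 1.16 and Tesc from -1.94 to -0.07.

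Vehicle levels differed between the punches for 9 of the 12 genes tested for it, where 2310 of 9159 genes (25.2%) did so overall. Besides Dio2 (3.35-fold), the level was higher in CER for Tesc (3.45-fold), Bcl11a (1.72-fold), Pak7 (1.66-fold), Synm and Sgk3 (both 1.56-fold) and Strn (0.38 on the log2 scale, adjusted p 0.0232). It was lower in CER for Arvcf (0.476-fold) and Lrtm2 (0.626-fold). Nt5c3, Ccng1 and Klf15 did not pass (adjusted p 0.202, 0.963 and 0.207).

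The genes next after the threshold were Phactr3 (difference 0.45 ± 0.11, adjusted p 0.0691), which rose in both punches, Ttc39c (1.00 ± 0.24, adjusted p 0.0816), which rose 2.15-fold in CER with a PVN change of 0.14 (adjusted p 0.816), and Bet1, a vesicle transport protein (0.86 ± 0.21, adjusted p 0.0834), which passed in neither punch. With the replicate number as a block the difference of Phactr3 passed (0.47, adjusted p 0.0277, range over its alternatives 0.0277 to 0.303), as it did in 3 other alternatives. Ttc39c passed in 2 alternatives, among them plate as a factor (adjusted p 0.0343, range 0.00828 to 0.817). At the other end stood large responses for which no difference was called. Cdkn1a, the cell cycle inhibitor p21, rose 9.29-fold in CER and 11.6-fold in PVN, and the interval of the difference was -0.53 to 0.01. Fkbp5, the co-chaperone that dampens the glucocorticoid receptor, rose 6.64-fold and 5.99-fold (interval -0.29 to 0.48). Zfp36, which promotes decay of inflammatory messages, rose 5.28-fold and 4.12-fold (interval -0.09 to 0.80). For Nrros and Pmaip1 the intervals were wider, -0.67 to 0.41 and -0.83 to 1.08, and Pmaip1 allowed a 2-fold larger rise in CER.

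The shared core of the response was described with the list of glucocorticoid response genes. This list, like the other pathway lists, was chosen with earlier results of these data known. Its shares are therefore a description and no independent test. Of its 20 genes 16 of 17 tested rose in CER (median log2 change 1.25), where 3.9% of all genes rose, and 14 of 16 rose in PVN (median 1.11), where 3.57% did, and none fell in either. Of the 18 tested for the difference 0 passed with edgeR, DESeq2 or limma-voom, and 6 had an unadjusted p under 0.05 with edgeR, as did 5.92% of all genes. The 18 differences ran from -0.55 to 0.51 with a median of -0.011. Among those 6, the metallothioneins Mt2 and Mt1 (-0.30 and -0.28), the lipid droplet gene Plin4 (-0.55) and the phagocytic receptor Mertk (-0.29) were more positive in PVN, and Ddit4, an inhibitor of mTOR (0.51), and Errfi1, an inhibitor of the EGF receptor (0.45), in CER. The receptor gene itself, Nr3c1, fell in both punches, by 0.66 in CER and by 0.50 in PVN on the log2 scale (difference -0.10, interval -0.39 to 0.19), from vehicle medians of 80.7 and 97.5 CPM. Of the 10 receptor and steroid handling genes tested 0 passed with any of the 3 tools, and 1, Ncoa2, had an unadjusted p under 0.05 with edgeR.

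The thyroid hormone list was also chosen with earlier results of these data known. Of its 10 genes 8 were tested, and Dio2 passed, where 0.131% of all genes did. An unadjusted p under 0.05 was reached by 3 (5.92% of all genes), namely Dio2, Thra and Crym, all more positive in PVN, and 7 of the 8 differences were negative. Hr, a thyroid hormone target, rose 3.36-fold in CER and 3.74-fold in PVN (difference -0.05, interval -0.57 to 0.46), Klf9 rose 1.36-fold in both, and Slco1c1, the thyroxine carrier of the blood-brain barrier, fell to 0.570-fold and 0.575-fold. Thra, a thyroid hormone receptor, passed in neither punch (difference -0.23, adjusted p 0.714), and Crym, which binds thyroid hormone in the cytosol, had a difference of -1.16 (adjusted p 0.778).

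The mTOR and p53 lists were likewise chosen with earlier results of these data known. Of the 18 mTOR, FoxO and insulin genes tested 2 passed (0.131% of all genes did), Klf15 and Sgk3, both larger in CER. DESeq2 called 1 of the 18 and limma-voom 0, and both calls ended without the 3 animals that stood apart. Sgk1, the sister kinase of Sgk3, rose 2.42-fold in CER and 2.01-fold in PVN (interval of the difference -0.02 to 0.54), and the insulin adaptor Irs2 rose 1.76-fold and 1.57-fold. Trib1, a pseudokinase, rose 1.94-fold in CER and 3.03-fold in PVN (difference -0.66, adjusted p 0.361). Of the 14 p53 targets and cell cycle brakes tested 1 passed, Ccng1, where 0.131% of all genes did, and 5 had an unadjusted p under 0.05, where 5.92% did. Gadd45a, a stress-induced growth brake, rose 3.45-fold in CER and was too low for the PVN fit, and its difference was 1.12 ± 0.29 (adjusted p 0.163). Mdm2, the p53 ubiquitin ligase, passed in neither punch (difference 0.07, interval -0.22 to 0.37).

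Beside the other 6 punched regions, whose animals are the same and which were not tested against CER or PVN, the 13 genes fell into several patterns. Dio2 rose in all 6, by 0.53 to 1.48 on the log2 scale, 3 above the CER change and 0 above the PVN change of 2.45. Nt5c3 (0.16 to 1.21) and Klf15 (0.84 to 1.17) were under the CER change in all 6, and Klf15 was above its PVN change of 0.68 in all 6. Arvcf was at 0.54 to 1.26, above the PVN change in all 6, the dDG value coming from a fit without a filter because it was too low to test there. Bcl11a was at -0.23 to -0.09 and Tesc at -0.25 to 0.16, and neither passed in any of the 6. Pak7 was at -0.44 to -0.13 and passed in 1. Lrtm2 was at -0.19 to 0.34 and passed in 0 of the 6, where its PVN change was -0.46. Ccng1, Synm and Sgk3 rose in all 6.

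**Figure D5:**
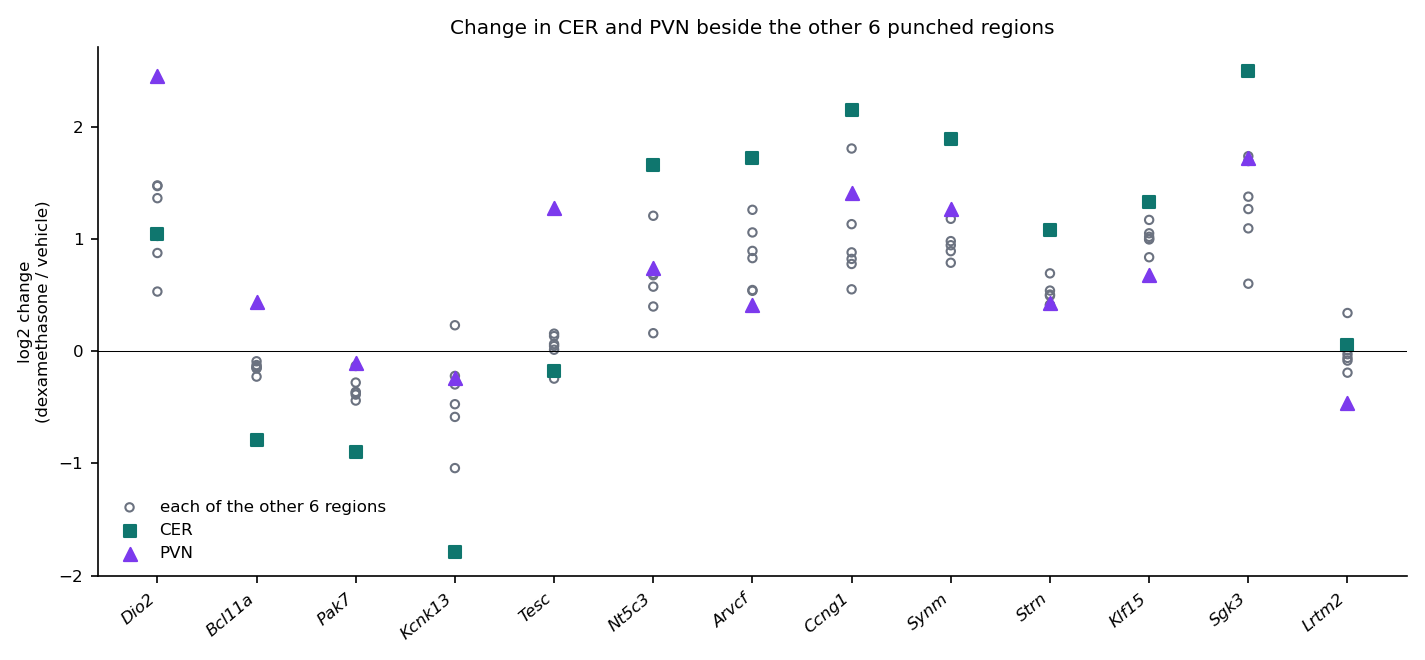
Log2 change under dexamethasone (vertical axis) of the 13 genes in CER (squares), PVN (triangles) and each of the other 6 regions (open circles); the values of Kcnk13, and that of Arvcf in dDG, come from the fits without a filter on low counts. The Dio2 triangle, at 2.45, lies above the highest open circle at 1.48.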

How the data were processed

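Messenger RNA was measured in 235 libraries, of which the 59 named CER or PVN were compared; the fits of the other 6 regions used the rest. The authors deposited whole-number counts of reads per gene for 27998 genes in 1 table; per the submitters' processing notes the tools included cutadapt, UMI-tools 0.5.4, STAR 2.6.0a, featureCounts 1.6.4 and DESeq2 1.30.1, on mm10. The strand setting and the use of the molecular identifiers in counting are not given in the sources used here. The deposited variance-stabilised tables were not used here. GENCODE M21 gave a symbol for 27645 genes. Groups come from the sample titles and treatment labels.

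Genes passing edgeR's filterByExpr were scaled by TMM and tested with edgeR 4.0.16 quasi-likelihood fits. The difference was the region-by-treatment coefficient of a model with animal, region and region-by-treatment terms. Changes within a punch were fitted without covariates, and vehicle levels with animal as a block over 14 animals. Benjamini-Hochberg adjustment ran over all genes of a fit (threshold 0.05). Standard errors are the absolute log2 value over the square root of F, and intervals use the normal quantile. CPM use TMM-scaled totals, and log2 levels a pseudocount of 1. Depth was 268538 to 1277998 counts a library, which limits genes of low level, and floors cover counting error only. No pair of libraries of a group agreed within sampling noise (smallest chi-square per degree of freedom 1.34).

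The animal pairs the punches, per the labels; deviations of the punches of 1 animal correlated with a median of 0.054 over 29 pairs. Vehicle and dexamethasone libraries of the same replicate number shared the plate in 15 of 15 CER and 14 of 14 PVN pairs and the punching date in 14 and 13, per the labels. Their deviations correlated with medians of 0.20 and 0.11, above 0.1 in 11 of 15 and 8 of 14 pairs, so the number pairs the arms through these batches and was used as a block in an alternative. Animals are separate samples, so p-values measure the spread between animals.

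The genes named are all past the test of the difference, the 3 next after it, the 5 largest shared responses with an unadjusted p above 0.05 for the difference, and the members of listed pathways and cell type markers. The genes and lists were chosen with earlier results of these data known. Alternatives were another tool (DESeq2 1.42.0, limma-voom with limma 3.58.1), scaling, filters, the block, plate, RIN, marker levels, thinning and left-out animals. R 4.3.3, Python 3.11.15, numpy 2.4.6, pandas 2.3.3, scipy 1.17.1 and matplotlib 3.10.9 were used.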

Additional observations from a re-analysis of the deposited data

Results flagged for a closer look

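For 13 genes the response to dexamethasone differed between CER and PVN by a direct test of the difference (edgeR, region-by-treatment term with animal as a block, adjusted p under 0.05). With the CER change minus the PVN change on the log2 scale, the values more positive in CER were 0.94 for Nt5c3, 1.43 for Arvcf, 0.81 for Ccng1, 0.60 for Synm, 0.69 for Strn, 0.71 for Klf15, 0.86 for Sgk3 and 0.51 for Lrtm2. The values more positive in PVN were -1.40 for Dio2, -1.18 for Bcl11a, -0.84 for Pak7, -1.63 for Kcnk13 and -1.42 for Tesc.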

How the results depend on the processing

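The count of 13 genes moved most with the filter, the depth and the block. It was 6 without the animal block (all 6 among the 13), 8 with limma-voom (6 shared), 58 with no filter on low counts (13 shared, 19895 tested), 2 with every library thinned to 268538 counts (6775 tested) and 7 with projection neuron and thalamus levels as covariates (6 shared, chosen after seeing the data). Apart from the block by replicate number, the remaining alternatives gave 9 (DESeq2) to 18 (adjusted p of 0.1), and 10 without the 3 animals that stood apart (8 shared, chosen after seeing the data). The difference for Fkbp5 reversed to -0.079 when thinned, where it was not called. No difference of the 13 genes changed sign under these alternatives; within single dates Kcnk13 did, at 0.038 on date 1. Besides Bcl11a, calls ended without the same 3 animals for Strn (0.64, adjusted p 0.117, range over its alternatives 0.00767 to 0.828), Klf15 (0.69, adjusted p 0.0796, range 0.0115 to 0.249), Sgk3 (0.80, adjusted p 0.12, range 0.00294 to 0.638) and Lrtm2 (0.52, adjusted p 0.0729, range 0.0218 to 0.817). DESeq2 called 9 of the 13; Tesc, Klf15 and Lrtm2 did not pass, and Kcnk13 had no adjusted p. With the replicate number as a block, 21 differences passed (all 13 among them, chosen after seeing the data), and the single punches gave 667 calls in CER and 619 in PVN. That block changed the PVN calls of Bcl11a and Strn and no other single-punch call of the 12 genes tested there. Counts ran from 439 to 696 in CER, 392 to 674 in PVN and 1901 to 2859 for vehicle levels.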

Other observations

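Among immediate early genes, of which 13 of 21 were tested, 0 passed the test of the difference with edgeR, DESeq2 or limma-voom, and 4 had an unadjusted p under 0.05 with edgeR, where 5.92% of all genes did. All 4 were more positive in PVN, where 3.01% of all genes were at that p: Junb (difference -0.94, adjusted p 0.361), Bdnf (-0.67, adjusted p 0.557), Fosl2 and Homer1. The 7 projection neuron genes tested also had negative differences (median -0.74), and the part of that list here was not tested. Junb was at -0.35 in CER and 0.43 in PVN (log2), and passed in neither.

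Avp had a CER median of 0 CPM in both arms, so no difference is given for it. Its PVN medians were 36.0 CPM under vehicle and 102 CPM under dexamethasone (PVN change 1.39, adjusted p 0.212). Of the 16 peptide and stress axis genes tested 0 passed with edgeR, DESeq2 or limma-voom, and apart from Avp 0 had an unadjusted p under 0.05 with edgeR.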
